A study of Mus musculus with 6 samples.

Results

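Krueppel-like factors (KLFs) are zinc finger transcription factors, and 8 of their genes were examined here in long-term haematopoietic stem cells (LT-HSCs): Klf2, Klf3, Klf6, Klf7, Klf9, Klf10, Klf12 and Klf13. They were taken by gene name from a table of 26776 genes, and all 8 were among the 18081 genes with enough counts to be tested. The study sorted LT-HSCs, the rare marrow cells that sustain blood formation for life, from Trim47+/eGFP mice, whose genotype name places an enhanced green fluorescent protein reporter at an allele of the ubiquitin ligase gene Trim47. All cells therefore shared the genotype, and the groups differed in reporter brightness, low (eGFPlo) or high (eGFPhi), with 3 libraries each. The sources used here give neither the age and number of the mice, nor the sorting gate, nor whether replicates were separate animals. P-values therefore measure only the spread between these libraries, which may be technical.

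The family binds GC-rich DNA and CACCC elements through a set of zinc fingers near the carboxy end, while the rest of each protein recruits different partners. By those partners the genes fall into classes: Klf2, Klf6 and Klf7 belong with the activators that recruit acetyltransferases, Klf3 and Klf12 with the repressors that bind the corepressor CtBP, and Klf9, Klf10 and Klf13 with the repressors that bind Sin3. In blood cells, KLF2 is known for keeping lymphocytes quiescent, KLF3 for restraining genes that the erythroid factor KLF1 activates, and KLF10 as an early response gene of TGF-beta signalling.

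Promoter sequences are shown for 4 genes, because Klf12 and Klf9 had the largest rises of the 8, Klf3 fell, and Klf2 carries a recognisable element. RefSeq (GRCm38.p6) held a promoter for 7 of the 8 genes; Klf10 was not matched. Each run below is the gene strand, 5′ to 3′, within the 250 bases before the RefSeq start, ended where a GENCODE exon of the gene begins. Capitals mark CACCC and GGGCGG in either orientation (their reverse complements are GGGTG and CCGCCC) and the MEF2 consensus. Neighbouring marked matches can touch or overlap, and some matches of Klf2 and Klf3 lie past the end of the runs. The runs are chr8:72318812-72319032 (plus strand) for Klf2, chr19:23140976-23141225 (plus) for Klf9, chr14:100149797-100150046 (minus) for Klf12 and chr5:64803271-64803387 (plus) for Klf3.
Klf2: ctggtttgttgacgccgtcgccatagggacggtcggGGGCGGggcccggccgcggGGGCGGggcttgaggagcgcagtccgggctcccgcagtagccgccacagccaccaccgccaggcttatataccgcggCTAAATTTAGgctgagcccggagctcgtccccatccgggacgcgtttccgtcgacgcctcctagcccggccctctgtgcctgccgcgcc
Klf9: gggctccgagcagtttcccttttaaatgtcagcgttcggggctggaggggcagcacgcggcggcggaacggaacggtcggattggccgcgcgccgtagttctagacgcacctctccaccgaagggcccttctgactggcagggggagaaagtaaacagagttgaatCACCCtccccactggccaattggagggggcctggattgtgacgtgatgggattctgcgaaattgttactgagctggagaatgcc
Klf12: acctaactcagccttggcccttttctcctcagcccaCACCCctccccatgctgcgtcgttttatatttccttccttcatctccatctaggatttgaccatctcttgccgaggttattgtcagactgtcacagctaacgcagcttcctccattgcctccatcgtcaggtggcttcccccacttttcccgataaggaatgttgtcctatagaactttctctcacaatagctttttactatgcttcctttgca
Klf3: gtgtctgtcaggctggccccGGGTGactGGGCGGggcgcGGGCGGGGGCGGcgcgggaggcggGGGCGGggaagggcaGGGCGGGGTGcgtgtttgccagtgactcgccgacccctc

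The full window of 250 bases held 1 CACCC match in Klf2, Klf9, Klf12 and Klf13 each, 5 in Klf3, 3 in Klf7 and 0 in Klf6. Of all 32851 promoters in the table, 52.0% held at least 1. GGGCGG occurred 6 times in Klf3, 3 times in Klf13, 2 times in Klf2, 1 time each in Klf6 and Klf7 and not in Klf9 or Klf12, against 32.7% of all promoters with a match. The MEF2 consensus, the site of the MEF2 factors that act upstream of Klf2, was found in 2.92% of all promoters and, among the 7, in Klf2 alone, as CTAAATTTAG 118 to 109 bases before the start. Of the pair with the largest rises, Klf9 had 59.6% G and C and Klf12 48.0%, beside a median of 52.4% over all promoters. Klf12 starts here 134883 bases downstream of its farthest GENCODE start, and the files do not tell which start was used. These matches are descriptions of the sequence and not evidence of binding.

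Library totals ran from 11221070 to 26058391 counts. Levels are given as CPM, counts scaled to a common total with trimmed mean of M-values (TMM) factors, as mean ± SD with n = 3 per group. All 18081 genes were fitted together with edgeR (quasi-likelihood F test), each fold change is eGFPhi over eGFPlo with its log2 standard error (SE), and p was adjusted by Benjamini-Hochberg over that table. Trim47 rose from 8.12 ± 0.818 to 23.7 ± 2.29 CPM (adjusted p = 1.69e-05, edgeR), which checks the labels of a sort made on its reporter.

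In eGFPhi, 6 of the 8 genes were higher and 2 were lower by edgeR, at an adjusted p below 0.05. The background was high, since 64.0% of all tested genes passed, 32.3% as higher and 31.7% as lower. For all 8 the 3 values of the groups did not overlap, as for 69.8% of all genes; eGFPhi lay above for 6 (35.2% of all genes) and below for 2 (34.6%). The median log2 fold change was 0.39 over the 8 genes and 0.00346 over all tested genes. Klf12 and Klf9 changed at least 2-fold, as did 22.5% of all genes. An exact two-sided permutation test of each gene's 6 values gave p = 0.1, the smallest that 3 libraries against 3 allow.

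**Figure D1:**
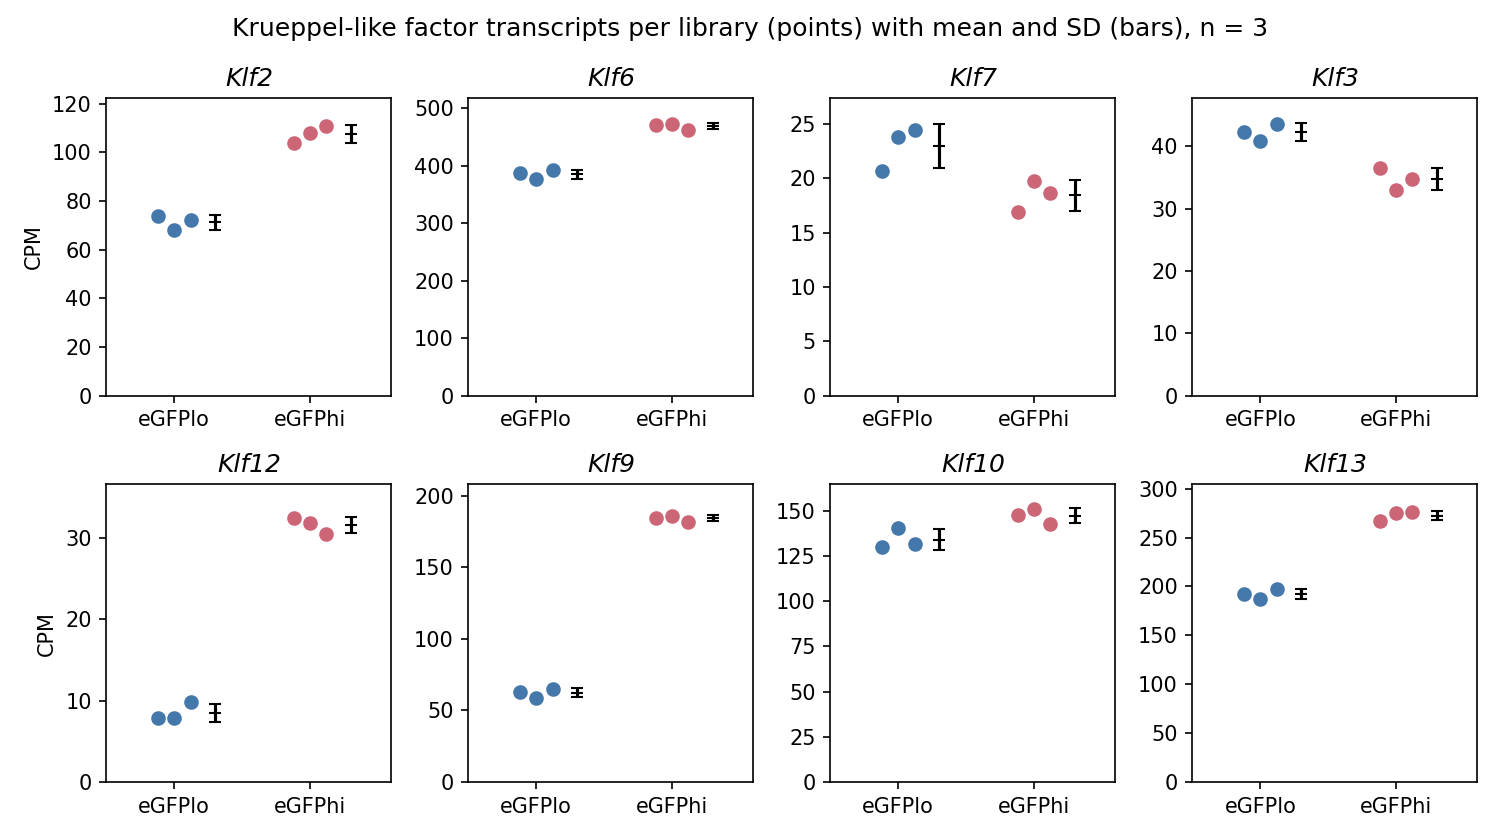
CPM of each gene (y axis, from 0) by group (x axis); points are libraries and bars the mean with SD, n = 3. Klf9 has the widest gap in CPM, from 65.0 in the highest eGFPlo library to 182 in the lowest eGFPhi library, and only Klf7 and Klf3 lie lower in eGFPhi.

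Among the acetyltransferase-recruiting class, Klf2 (ENSMUSG00000055148, GRCm38 chromosome 8, 72319033 to 72321656, plus strand), a factor of quiescent lymphocytes and of endothelium under flow, was higher in eGFPhi. It stood at 73.8, 67.9 and 72.0 CPM in eGFPlo replicates 1 to 3 and at 104, 108 and 111 CPM in eGFPhi replicates 1 to 3. Every eGFPhi library lay above every eGFPlo library, and the rise was 1.51-fold (log2 fold change 0.59, SE 0.04, adjusted p = 2.08e-05, edgeR). In the same fit 3904 genes had a larger log2 fold change than Klf2.

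Klf6 (ENSMUSG00000000078, chromosome 13, 5861482 to 5870394, plus strand), an injury and stress response factor expressed in most tissues, had the most counts of the 8 genes, from 4513 to 12313 per library. It stood at 387, 377 and 393 CPM in eGFPlo and at 472, 473 and 463 CPM in eGFPhi. The groups were tight and separate, and the rise was small, at 1.22-fold (log2 fold change 0.28, SE 0.02, adjusted p = 2.96e-05, edgeR).

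Klf7 (ENSMUSG00000025959, chromosome 1, 64029447 to 64122282, minus strand), its close relative and a factor known from neuron development, moved the other way. It stood at 20.6, 23.8 and 24.4 CPM in eGFPlo and at 16.9, 19.7 and 18.6 CPM in eGFPhi. The lowest eGFPlo library lay just above the highest eGFPhi library, and the level was 1.24-fold lower (log2 fold change -0.31, SE 0.09, adjusted p = 0.0193, edgeR). The call was lost without eGFPlo replicate 2 (adjusted p = 0.0560), eGFPlo replicate 3 (adjusted p = 0.0649) or eGFPhi replicate 1 (adjusted p = 0.0548). The exons of Klf7 share 3196 bases with those of Gm26649, a noncoding gene on the opposite strand, and the strand setting of the counting is not given, so reads of that gene cannot be told apart here.

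In the CtBP-binding class the measured pair moved in opposite directions. Klf3 (ENSMUSG00000029178, chromosome 5, 64803388 to 64832901, plus strand) stood at 42.3, 40.8 and 43.7 CPM in eGFPlo and at 36.6, 33.1 and 34.7 CPM in eGFPhi. The libraries did not overlap, and the level was 1.22-fold lower in eGFPhi (log2 fold change -0.29, SE 0.06, adjusted p = 0.00313, edgeR). Klf3 shares 404 exon bases with Gm20033 on the opposite strand, which had 6 to 18 counts per library against 411 to 861 for Klf3.

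Klf12 (ENSMUSG00000072294, chromosome 14, 99870632 to 100284679, minus strand), a repressor first described at the AP-2alpha gene, rose most of the 8 genes. It had 92, 112 and 177 counts in eGFPlo and 365, 829 and 594 in eGFPhi, which gave 7.88, 7.83 and 9.80 CPM against 32.5, 31.9 and 30.5 CPM. The lowest eGFPhi library was thus far above the highest eGFPlo library, a 3.69-fold rise (log2 fold change 1.88, SE 0.10, adjusted p = 3.75e-06, edgeR). On the scale of log2 of the deposited FPKM plus 1 the difference was 1.20, since that scale understates changes of low genes. Only 5.8% of tested genes had a larger log2 fold change. Per kilobase of merged exon, the ratio of Klf12 to Klf3 counts was 0.300, 0.309 and 0.361 in eGFPlo and 1.43, 1.55 and 1.41 in eGFPhi (exact two-sided permutation p = 0.1). Klf12 was therefore below Klf3 in each eGFPlo library and above it in each eGFPhi library.

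Of the Sin3-binding class, the 3 genes among the 8 all rose, by very different amounts. Its tested relatives Klf11 (log2 fold change -0.16, adjusted p = 0.0802, edgeR) and Klf16 (0.04, adjusted p = 0.721, edgeR) were not called. Klf9 (ENSMUSG00000033863, chromosome 19, 23141226 to 23168134, plus strand), a gene induced by thyroid hormone and glucocorticoids, stood at 63.0, 59.0 and 65.0 CPM in eGFPlo and at 185, 186 and 182 CPM in eGFPhi. Its 3 eGFPhi values had an SD of 2.07 CPM around a mean of 184 CPM, and the rise was 2.96-fold (log2 fold change 1.56, SE 0.04, adjusted p = 1.48e-07, edgeR). That was the smallest adjusted p of the 8, with 7.68% of tested genes having a larger log2 fold change.

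Klf13 (ENSMUSG00000052040, chromosome 7, 63886351 to 63938915, minus strand), a factor known from the RANTES chemokine gene of T cells, stood at 193, 187 and 197 CPM in eGFPlo and at 267, 275 and 276 CPM in eGFPhi. The groups were well apart, a rise of 1.42-fold (log2 fold change 0.50, SE 0.03, adjusted p = 5.34e-06, edgeR). Klf10 (ENSMUSG00000037465, chromosome 15, 38291463 to 38300706, minus strand) stood at 130, 141 and 132 CPM in eGFPlo and at 147, 151 and 143 CPM in eGFPhi. Its highest eGFPlo and lowest eGFPhi libraries nearly met, at 141 and 143 CPM, and the rise was 1.10-fold (log2 fold change 0.13, SE 0.04, adjusted p = 0.0199, edgeR). The Klf10 call was lost without eGFPlo replicate 1 (adjusted p = 0.0623), eGFPlo replicate 3 (adjusted p = 0.0677) or eGFPhi replicate 2 (adjusted p = 0.0675).

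**Figure D2:**
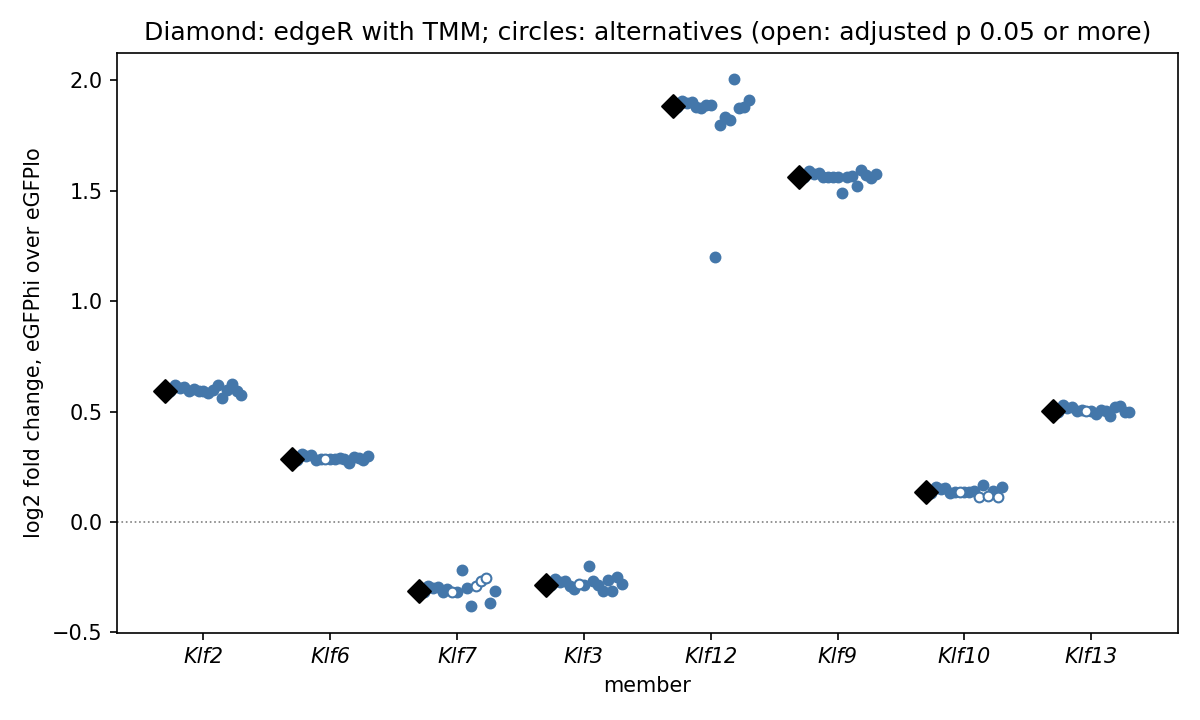
The log2 fold change (y axis) of each gene (x axis) under the main edgeR analysis (diamond) and 16 alternatives (circles; open where the adjusted p is 0.05 or more). Each gene keeps its direction under all 16; Klf2, Klf9 and Klf12 have filled circles only, and the low circle of Klf12 is the FPKM scale with a pseudocount of 1.

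Libraries of a group varied little, and edgeR estimated a common biological coefficient of variation of 0.0941. When 0.2 was assumed in its place, in a likelihood ratio test, 36.6% of all tested genes passed, 20.1% as higher and 16.5% as lower. Under it 3 of the 8 genes were higher and 0 lower: Klf12, Klf9 and Klf2. Klf13 had an adjusted p of 0.0835 there, and Klf6, Klf3, Klf7 and Klf10 had adjusted p-values of 0.376, 0.391, 0.338 and 0.711. That analysis changed both the spread and the test, and which of these the lost calls follow was not tested.

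To compare genes with each other, counts were divided by merged exon length, giving CPM per kilobase. Summed over the 8 genes this level was 205 ± 3.497 in eGFPlo and 285 ± 2.48 in eGFPhi. In eGFPlo the order was Klf6 (87.7 ± 1.87), Klf2 (38.6 ± 1.64), Klf10 (32.1 ± 1.38), Klf13 (25.5 ± 0.675), Klf9 (12.9 ± 0.631), Klf3 (3.76 ± 0.128), Klf7 (2.82 ± 0.248) and Klf12 (1.22 ± 0.161), and no neighbours overlapped. In eGFPhi it was Klf6 (107 ± 1.23), Klf2 (58.2 ± 1.95), Klf9 (38.3 ± 0.429), Klf13 (36.2 ± 0.662), Klf10 (35.2 ± 0.991), Klf12 (4.53 ± 0.144), Klf3 (3.09 ± 0.156) and Klf7 (2.27 ± 0.174), and among neighbours the libraries of Klf13 and Klf10 overlapped. Klf9 thus moved from rank 5 to rank 3 and Klf12 from rank 8 to rank 6, also by deposited FPKM, whose gene length counts exons of each isoform.

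**Figure D3:**
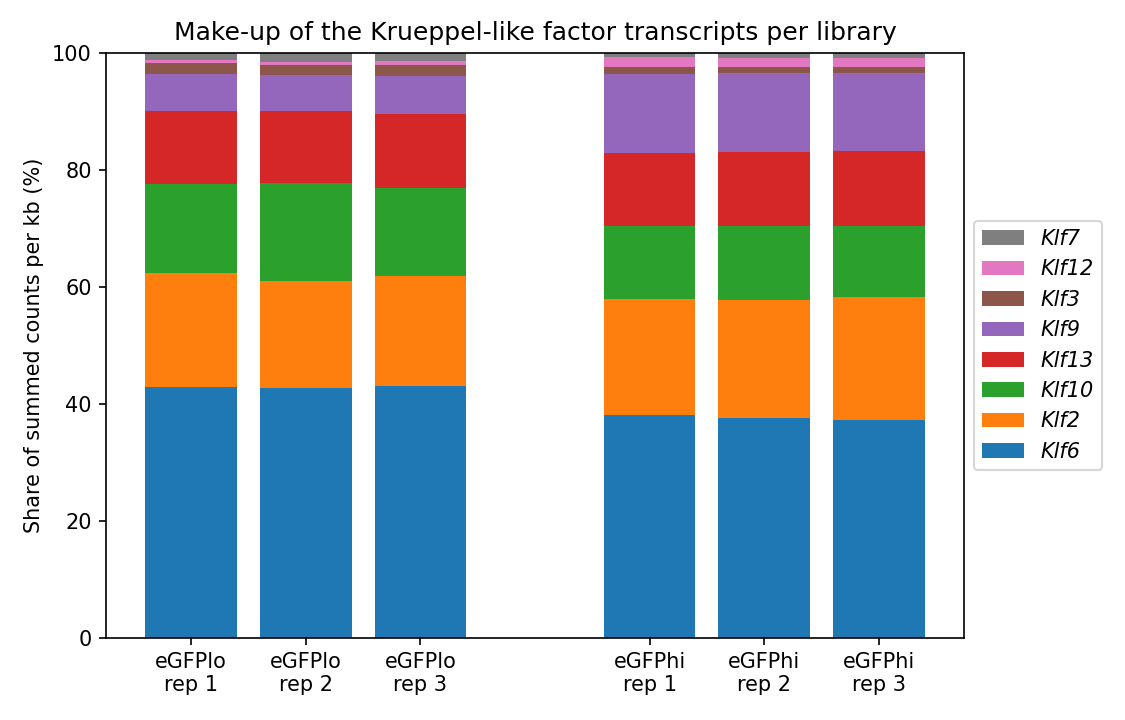
Share of each gene (colour) in the summed counts per kilobase of the 8 genes (y axis, percent) for each library (x axis). The Klf9 band is wider and the Klf6 and Klf10 bands are narrower in the 3 eGFPhi libraries.

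A share within a library does not depend on the scaling between libraries. Klf9 made up 6.37, 6.10 and 6.49% of the summed level of the 8 genes in eGFPlo and 13.6, 13.5 and 13.3% in eGFPhi. Klf6 had the largest share in every library, with 42.9 ± 0.182% in eGFPlo and 37.6 ± 0.434% in eGFPhi. Klf10, whose CPM was higher in eGFPhi, had a lower share there, at 12.4 ± 0.289% against 15.7 ± 0.922%. Klf2 went from 18.8 ± 0.594% to 20.4 ± 0.648% and Klf12 from 0.594 ± 0.0701% to 1.59 ± 0.0536%. Klf3 had 1.84 ± 0.0314% and 1.09 ± 0.0638%, and Klf7 had 1.38 ± 0.123% and 0.796 ± 0.0548%. The groups did not overlap for these 7 genes, each with an exact permutation p of 0.1 (0.114 adjusted over the 8 shares). The share of Klf13 overlapped between groups, at 12.5 ± 0.118% and 12.7 ± 0.185% (exact permutation p = 0.2, adjusted 0.2), but not with counts undivided by length, nor without eGFPlo replicate 3 or eGFPhi replicate 1. Without the division by length the difference in share was 0.74 in place of 1.598 percentage points for Klf2. It was -1.85 in place of -0.75 for Klf3 and -1.04 in place of -0.58 for Klf7. For Klf12 it was 1.57 in place of 0.996 and for Klf13 0.61 in place of 0.24. For Klf9 it was 7.78 in place of 7.12, for Klf6 -4.84 in place of -5.31 and for Klf10 -2.97 in place of -3.31. The ratio of Klf9 to Klf13 per kilobase was 0.506 ± 0.0117 in eGFPlo and 1.06 ± 0.0250 in eGFPhi.

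Markers of other cells moved in the same libraries, where 32.3% of all tested genes were called as higher and 31.7% as lower. The 7 granulocyte-monocyte progenitor markers were all lower in eGFPhi, with a summed level of 5250 to 5358 CPM in eGFPlo and 285 to 291 CPM in eGFPhi, and so were the 7 B cell markers, at 3347 to 3432 against 403 to 416 CPM. The 7 erythroid markers were also all lower, at 198 to 224 against 97.4 to 105 CPM. Of 7 T and NK cell markers 4 could be tested and all 4 were lower, at 61.9 to 62.8 against 9.97 to 11.1 CPM, and 4 of the 7 had no count in eGFPhi. The 4 monocyte markers were lower, at 66.4 to 76.1 against 10.4 to 12.1 CPM. Of 10 HSC markers 9 were higher and 0 lower, at 947 to 986 against 2006 to 2214 CPM. Of 6 megakaryocyte markers 5 were higher and 1 lower, at 110 to 118 against 304 to 315 CPM. The lower one was Ppbp (5.48 ± 0.160 against 0.0640 ± 0.111 CPM), and Vwf rose most (16.4 ± 0.897 to 187 ± 4.72 CPM). The HSC markers thus had counts in both groups, and in eGFPlo Kit (539 ± 5.74 CPM) and Hlf (192 ± 13.8 CPM) stood highest among them. Hoxb5 (0.440 ± 0.0658 CPM) and Slamf1 (4.75 ± 1.01 CPM) stood lowest there, so the sum says little about them. Summed markers of granulocyte-monocyte progenitors, B, T and NK, erythroid and monocyte cells were higher in eGFPlo, and those of megakaryocytes in eGFPhi. The megakaryocyte sum in eGFPhi was mostly Vwf, so it says little about the other markers of that list. Of 7 endothelium and stroma markers 4 could be tested, of which 3 were higher and 1 lower, at 82.6 to 88.7 against 131 to 133 CPM. KLF genes are expressed in several of these lineages, and the part of these cells in the differences was not tested. In bulk libraries fewer cells of a type and less RNA per cell cannot be told apart.

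Of 18 other genes of the KLF and SP families, 10 could be tested, 3 were higher and 2 lower. The median log2 fold change of the 10 was 0.10. Of all tested genes 32.3% were higher and 31.7% lower. Klf4, the close relative of Klf2 and a factor of monocyte differentiation, rose 1.79-fold from 93.2 ± 2.07 to 167 ± 2.30 CPM (adjusted p = 6.12e-07, edgeR). Klf5 rose from 4.55 ± 0.714 to 8.54 ± 1.11 CPM (adjusted p = 0.00156). Klf1, the master activator of erythroid genes, was 2.05-fold lower, at 12.6 ± 0.400 against 6.07 ± 0.813 CPM (adjusted p = 1.95e-04), beside the fall of the erythroid markers above.

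Among the SP factors, which bind the same GC boxes, Sp4 rose 1.76-fold from 28.6 ± 6.87 to 50.3 ± 0.671 CPM (adjusted p = 0.00244). Sp3 was 1.34-fold lower, at 126 ± 5.88 against 94.6 ± 6.66 CPM (adjusted p = 5.03e-04). Sp1 (169 ± 22.3 and 150 ± 18.9 CPM) and Sp2 (25.7 ± 4.01 and 31.4 ± 4.47 CPM) had overlapping groups, with adjusted p-values of 0.231 and 0.118 by edgeR. Sp2 was called as higher without eGFPlo replicate 3 (log2 fold change 0.42, adjusted p = 0.0294) or eGFPhi replicate 2 (0.39, adjusted p = 0.0346). The relatives of the Sin3-binding and CtBP-binding genes did not pass: Klf11 was at 65.9 ± 5.74 and 59.3 ± 2.54 CPM, Klf16 at 30.6 ± 2.27 and 31.3 ± 2.38 CPM and Klf8 at 8.48 ± 2.22 and 9.29 ± 2.70 CPM. Klf11 was called as lower without eGFPlo replicate 1 (log2 fold change -0.22 in place of -0.16, adjusted p = 0.0122). Klf14, Klf15 and Sp6 were listed with too few counts to test, and Klf17, Sp5, Sp7, Sp8 and Sp9 were not analysed here.

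**Figure D4:**
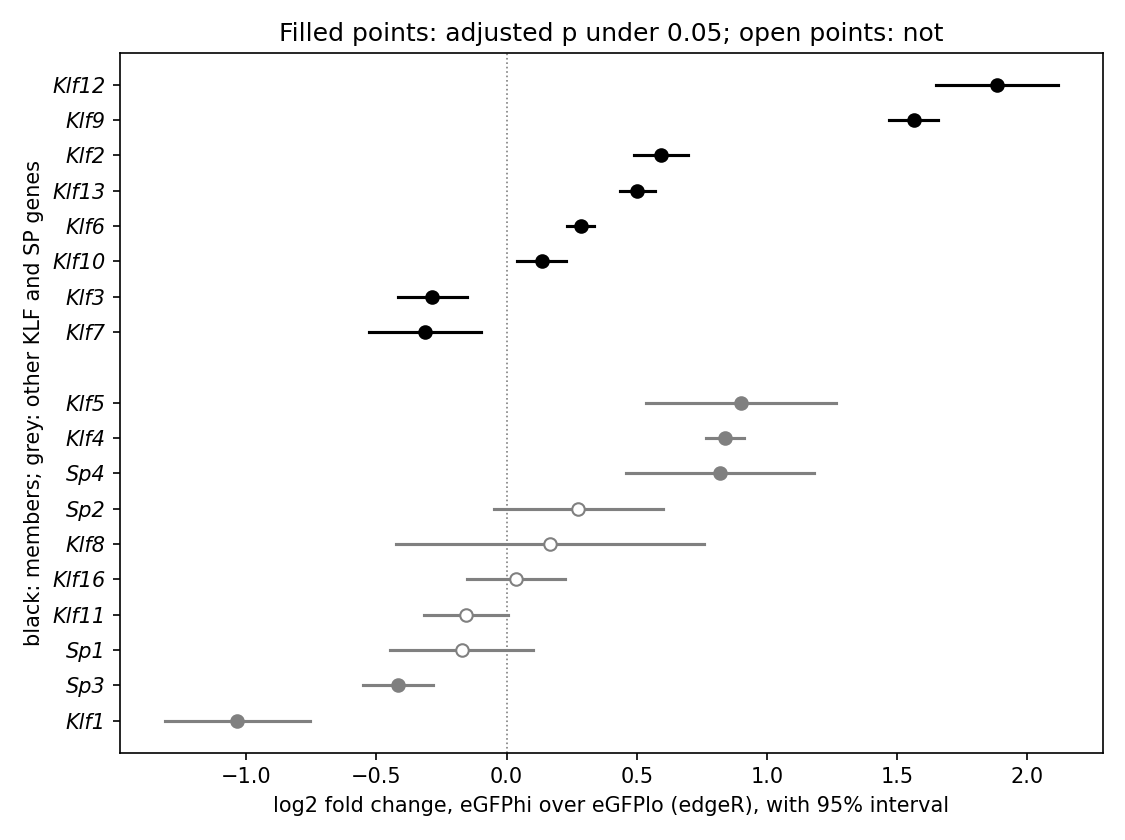
The log2 fold change with its 95% interval (x axis) for the 8 genes (black) and the 10 other tested KLF and SP genes (grey); filled points have an adjusted p under 0.05. Klf12 and Klf9 lie farthest to the right and Klf1 farthest to the left.

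Upstream of Klf2, flow and stress signals pass through the kinases MEKK3, MEK5 and ERK5 to MEF2 factors, which class II histone deacetylases hold back. FOXO factors also act on the gene, and the ubiquitin ligases WWP1, SMURF1 and FBXW7 mark the KLF2 protein for breakdown. Of 14 regulators from these groups, all tested, 6 were higher, 3 lower and 5 not called (median log2 fold change 0.08). The share called was near the 64.0% of all tested genes. Map2k5, the gene of MEK5, rose from 51.0 ± 0.585 to 66.7 ± 0.987 CPM (adjusted p = 8.10e-05, edgeR). Map3k2, another kinase gene of the list, rose 1.13-fold from 72.3 ± 3.70 to 82.1 ± 2.94 CPM (adjusted p = 0.0133, edgeR). Map3k3, the gene of MEKK3 (log2 fold change 0.07, adjusted p = 0.352), and Mapk7, the gene of ERK5 (-0.25, adjusted p = 0.169), were not called. The deacetylase genes went apart, Hdac5 rising from 60.2 ± 1.06 to 85.8 ± 1.73 CPM (adjusted p = 1.62e-05) and Hdac7 falling from 134 ± 5.33 to 94.7 ± 3.03 CPM (adjusted p = 3.49e-05). Foxo3, a factor that maintains HSCs, rose 1.24-fold from 234 ± 4.03 to 289 ± 4.59 CPM (adjusted p = 3.24e-05). Foxo1 went the other way, from 67.3 ± 0.829 to 50.5 ± 1.74 CPM (adjusted p = 1.04e-04), and so the FOXO genes had no common direction. Among the ligase genes Smurf1 rose 1.70-fold from 16.2 ± 1.64 to 27.6 ± 5.68 CPM (adjusted p = 0.00400), Fbxw7 fell 1.26-fold (adjusted p = 9.32e-04) and Wwp1 was not called (adjusted p = 0.712). Map3k2, Map3k3, Mapk7, Foxo1 and the ligase genes were singled out after their values were seen. Assuming 0.2 for the coefficient of variation, 1 of the 14 was higher, Smurf1 (adjusted p = 0.00677, likelihood ratio test), and 0 were lower. Of all tested genes 20.1% were higher and 16.5% lower under that assumption.

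The MEF2 genes were singled out after their values were seen, because of the element in the Klf2 promoter shown above. Mef2c stood at 213 ± 7.57 and 211 ± 5.72 CPM with overlapping groups (adjusted p = 0.682, edgeR). Mef2d rose 1.07-fold, from 162 ± 1.72 to 173 ± 3.45 CPM (adjusted p = 0.0174), a call lost without eGFPlo replicate 1 (adjusted p = 0.0503), eGFPhi replicate 2 (adjusted p = 0.0566) or eGFPhi replicate 3 (adjusted p = 0.0604) and with DESeq2 (adjusted p = 0.0905). Mef2a was at 94.9 ± 6.75 and 116 ± 19.9 CPM (adjusted p = 0.0586), and was called as higher under 6 of 16 alternatives, among them the replicate block (adjusted p = 0.0105) and DESeq2 (adjusted p = 0.0261). Without eGFPhi replicate 1 its log2 fold change was 0.15 in place of 0.29.

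Of 6 genes known as KLF2 targets in lymphocytes and endothelium, 4 could be tested. Of these, 2 were higher and 1 lower (64.0% of all tested genes were called), with a median log2 fold change of 0.35. S1pr1, the sphingosine-1-phosphate receptor for egress from tissues, rose 1.42-fold from 64.1 ± 2.63 to 91.2 ± 2.69 CPM (adjusted p = 4.63e-05, edgeR). Thbd, the gene of thrombomodulin, rose from 9.54 ± 0.635 to 13.4 ± 0.952 CPM (adjusted p = 0.00326). Itgb7, an integrin gene, was at 22.3 ± 4.0005 and 15.1 ± 0.606 CPM (adjusted p = 0.00730). Cdkn1a was not called (adjusted p = 0.0855, edgeR). The tested genes had no common direction.

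The partners of KLF proteins showed no common direction either. Of 10 corepressor genes 2 were higher, 4 lower and 4 not called (64.0% of all tested genes were called), with a median log2 fold change of -0.10. Sap30, of the Sin3 complex, fell from 42.5 ± 1.99 to 26.4 ± 0.663 CPM (adjusted p = 3.27e-05, edgeR). Hdac2 was 1.24-fold and Ncor1 1.11-fold lower. Ctbp1, which encodes a CtBP corepressor of the kind that KLF3 and KLF12 bind, rose 1.15-fold from 100.2 ± 1.24 to 115.0 ± 0.813 CPM (adjusted p = 0.000642, edgeR). Of 4 coactivator genes 1 was higher and 3 were not called: Ep300 was at 343 ± 0.364 and 356 ± 4.64 CPM, an adjusted p of 0.0476 that was lost under 12 of 16 alternatives.

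In the TGF-beta pathway, to which Klf10 responds, 5 of 9 genes were higher and 1 lower, at a median log2 fold change of 0.30. The shares over all tested genes were 32.3% higher and 31.7% lower. The genes of the SMAD inhibitors Ski (67.0 ± 7.34 to 176 ± 6.90 CPM, adjusted p = 4.19e-06, edgeR) and Skil (116 ± 4.62 to 205 ± 8.23 CPM, adjusted p = 3.23e-06) rose most surely. Smad3, a signal carrier of the pathway, rose 1.36-fold, and the ligand gene Tgfb1 fell from 287 ± 10.6 to 203 ± 4.56 CPM (adjusted p = 1.25e-05).

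Glucocorticoid-responsive genes, with which Klf9 shares an inducer, also went both ways. Of 8, 3 were higher, 4 lower and 1 not called (64.0% of all tested genes were called), with a median log2 fold change of 0.03. Counted among the 4 was Nr3c1, the gene of the glucocorticoid receptor itself (118 ± 4.99 against 94.7 ± 3.77 CPM, adjusted p = 5.84e-04, edgeR). Tsc22d3, which encodes GILZ, rose 1.58-fold from 40.1 ± 1.49 to 63.1 ± 0.691 CPM (adjusted p = 1.30e-05, edgeR), and the clock gene Per1 rose from 202 ± 6.57 to 343 ± 34.5 CPM (adjusted p = 4.91e-05). Fkbp5, a chaperone of the steroid receptor, fell from 97.9 ± 2.27 to 66.7 ± 4.08 CPM (adjusted p = 5.54e-05), and Zbtb16, which encodes the factor PLZF, was 2.13-fold lower at 44.8 ± 1.73 against 20.99 ± 1.12 CPM (adjusted p = 4.90e-06).

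Assuming 0.2 for the coefficient of variation, fewer genes of the lists were called, and fewer of all tested genes (36.6% in place of 64.0%). There remained 3 higher and 1 lower of the 10 other KLF and SP genes, where Sp3 was lost, and 0 higher and 0 lower of the 4 KLF2 targets. Among corepressors 0 were higher and 1 lower (Sap30), among coactivators 0 and 0. In the TGF-beta pathway 2 were higher (Ski and Skil) and 0 lower, and of the glucocorticoid-responsive genes 2 were higher (Per1 and Tsc22d3) and 1 lower (Zbtb16).

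**Figure D5:**
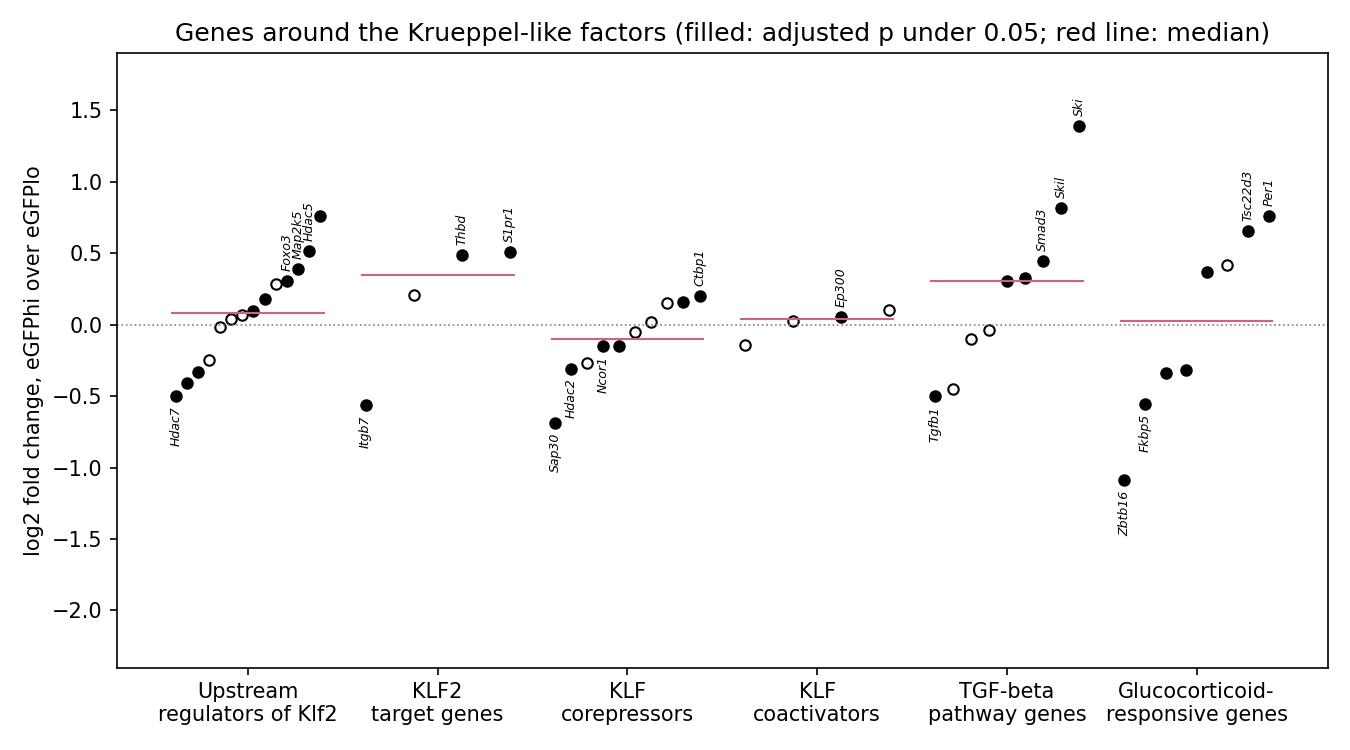
The log2 fold change (y axis) of the tested genes of 6 lists (x axis); filled points have an adjusted p under 0.05, red lines are list medians, and the genes named by rule are labelled. In the lists other than the coactivators, filled points lie on both sides of 0.

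For each gene the 2 others with the most similar profile were taken, by the root mean square difference between centred log2 CPM over the 6 libraries. Since the libraries form 2 groups, this measure mainly follows the size of the group difference. Nearest to Klf12 were Dock6 (difference 0.0383, 14.4 ± 1.32 to 54.4 ± 1.702 CPM) and Mylk (0.0386, 19.5 ± 2.54 to 71.5 ± 2.203 CPM). Nearest to Klf9 were Myh14 (0.0128, 2.10 ± 0.133 to 6.39 ± 0.114 CPM) and Ak1 (0.0271, 3.83 ± 0.116 to 11.2 ± 0.159 CPM). For Klf2 they were Vaultrc5 (0.0139) and Phlpp1 (0.0242), for Klf13 Ptpn18 (0.0155) and Zfp512 (0.0157), and for Klf6 Fnta (0.0108) and Git1 (0.0138). Klf3 was followed most closely by Cxxc1 (0.0193) and Ccar1 (0.0219), Klf7 by Cdk4 (0.0309) and Rnf122 (0.0313), and Klf10 by Ppif (0.0179) and Cnst (0.0189). Ppif and Cnst did not pass the threshold themselves, with adjusted p-values of 0.0607 and 0.105 by edgeR. Rnf122 passed (adjusted p = 0.0390, edgeR), but its call was lost under 10 of 16 alternatives.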

How the data were processed

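RNA of eGFPlo and eGFPhi LT-HSCs was selected for poly-A, made into stranded paired-end libraries and sequenced on an Illumina NovaSeq instrument, per the labels' protocols. The submitters' processing notes name CASAVA 1.8, HISAT2, StringTie and edgeR without roles, and the builds hg38 and GRCm38; of 26776 genes in the deposited table, 26471 had the coordinates of GENCODE M21 on GRCm38. Which program counted the reads, and with which strand setting, is not given in the sources used here. Deposited counts per gene and library were used as raw counts. The FPKM values deposited by the authors divide the same counts by library total and by a length equal to the sum of a gene's distinct exons (within 0.5% for 97.9% of genes with at least 10 counts in eGFPhi replicate 2).

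The analysis used edgeR 4.0.16 (R 4.3.3). Genes passed filterByExpr (minimum count 10, minimum total 15), libraries were scaled by TMM, and a design of group alone was tested by quasi-likelihood F test, with Benjamini-Hochberg adjustment over 18081 genes and a threshold of 0.05. SE is the log2 fold change over the square root of F. Groups were compared unpaired. Alternatives were upper-quartile or RLE factors, no filter, 5 CPM in 3 libraries, DESeq2 1.42.0, limma 3.58.1 with voom, an assumed coefficient of variation of 0.2, the replicate block, log2 FPKM plus 1 or 0.1, and leaving out each library. The pipeline was also run on simulated counts with the same dispersion for all genes and few changed genes. In these data 64.0% of tested genes were called, so that run cannot check the calls or the scaling here.

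The 8 genes, the lists and the tests were chosen with earlier results of these data known. Named besides the 8 are Trim47, the other tested KLF and SP genes, and up to 4 members of each list past the threshold with the smallest p. Named too are the 2 most similar genes with a mean of 1 CPM or more and a symbol that is not a predicted model's. The MEF2 genes, Map3k2, Map3k3, Mapk7, Foxo1, the ligase genes, Cdkn1a, Nr3c1 and the single cell type markers are outside this rule. Some genes first placed on the lists were taken off them and are not reported here.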

Additional observations from a re-analysis of the deposited data

How the results depend on the processing

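Across 16 alternatives, Klf2, Klf9 and Klf12 kept their direction and their side of the threshold in all, with log2 fold changes of 0.56 to 0.63, 1.49 to 1.59 and 1.20 to 2.005. The other 5 kept their direction in all 16, but with an assumed coefficient of variation of 0.2 lost the call, at -0.28 (Klf3), 0.28 (Klf6), -0.32 (Klf7), 0.13 (Klf10) and 0.50 (Klf13). Leaving out each library gave -0.38 to -0.25 for Klf7 and 0.11 to 0.17 for Klf10, each past the threshold in 3 of 6 fits, and gave -0.0234 to 0.0980 for Klf16, -0.109 to 0.374 for Klf8 and -0.0389 to 0.00975 for Mef2c, 3 genes that did not pass. Mef2c also changed sign with upper-quartile factors (0.00743) and the stricter filter (0.000893). The counts of 5840 higher and 5731 lower genes became 3637 and 2982 with the assumed coefficient. With deposited FPKM all 8 genes kept their place in the eGFPhi order and 6 of 8 in the eGFPlo order, where Klf10 and Klf13 changed places, and 3 of 8 in an order by the mean over both groups. Residuals of libraries with the same replicate number were uncorrelated across genes (r = -0.0133, 0.000555 and -0.0108); with the replicate block 5551 genes were higher and 5414 lower, and the 8 genes kept their calls. The low counts of Klf12 in eGFPlo (92 to 177) limit its precision there.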
